A study of Mus musculus with 2 samples.

Results

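The expression of 7 genes of the MHC class II antigen presentation pathway was followed across the cells of the small intestine of Apc-deleted mice. They were picked by name, not by a measured value, and all 7 of the 7 names were found among the 31053 genes of both count matrices. H2-Aa and H2-Ab1 encode the α and β chains of the I-A molecule, and H2-Eb1 encodes the β chain of I-E. Cd74 encodes the invariant chain, Ciita the class II transactivator, and H2-DMa and H2-DMb1 both chains of the peptide-loading molecule H2-DM. The question was how these transcripts were spread over dendritic cells, macrophages, monocytes, B cells and plasma cells, and whether crypt cells or enterocytes carried more of them than the T cells of the same library.

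The cells came from the proximal small intestine of 2 VilCreER Apc fl/fl mice, which received 2 injections of 2 mg tamoxifen 24 h apart and were sampled on day 4. The Villin promoter limits the inducible Cre to gut epithelium, so the leukocytes described here carry floxed Apc alleles but are not a target of the Cre, and deletion in single cells was not checked, because molecules counted at the 3′ end of a transcript need not cover the deleted stretch. Both mice share the genotype and the treatment, no control genotype was compared, and every comparison is between cell classes of the same animals. The filters kept 7941 cells of mouse 1 (median 4381 unique molecular identifiers, UMIs) and 6957 cells of mouse 2 (median 2803 UMIs), and 16 barcodes occurred among the kept cells of both libraries.

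MHC class II molecules carry peptides from taken-up proteins to CD4 T cells. The α and β chains are assembled in the endoplasmic reticulum on the invariant chain, which blocks the peptide groove until proteases in the endosome remove it and H2-DM exchanges its last fragment for a peptide. CIITA does not bind DNA itself but assembles on factors that sit on a conserved X and Y box upstream of class II genes, and it is made constitutively in professional antigen-presenting cells and on interferon-γ in many others. Mouse T cells make no class II protein of their own, which is why they served as the background, and enterocytes of the small intestine are known to be able to express class II.

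Of the 7 genes, 5 lie within the major histocompatibility complex on chromosome 17 (GRCm38, GENCODE vM21): H2-DMa at chr17:34119541-34139101, H2-DMb1 at chr17:34153072-34160230, H2-Ab1 at chr17:34257689-34269419 and H2-Eb1 at chr17:34305867-34316674 on the plus strand, and H2-Aa at chr17:34282744-34287823 on the minus strand. Ciita lies at chr16:10480059-10528418 on the plus strand. To show the element through which CIITA acts, RefSeq promoter windows (250 bases before to 50 bases after a start, GRCm38.p6) were searched on both strands. The search was for the X box core AGNAAC, the Y box ATTGG and the pair. In the pair, X came before Y on the same strand with 10 to 30 bases between them. Windows were at hand for 4 of the 7 genes, H2-Aa, H2-Eb1, H2-DMa (2 windows) and H2-DMb1. The stretches below are shown because they compare this element between one of the genes and its relatives. Those with the pair have 10 bases on either side of it and the X core and Y box in capitals. The stretch of H2-Aa lacks the letters AGNAAC and starts at a fixed distance from its Y box.
H2-Eb1, chr17:34305765-34305822, plus strand: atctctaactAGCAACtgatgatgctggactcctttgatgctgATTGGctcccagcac
H2-Eb2, chr17:34325532-34325589, plus strand: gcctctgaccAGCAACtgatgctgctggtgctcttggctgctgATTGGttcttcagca
H2-Ob, chr17:34238807-34238862, plus strand: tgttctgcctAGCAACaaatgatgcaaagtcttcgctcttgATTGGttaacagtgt
H2-Aa, chr17:34287857-34287915, minus strand: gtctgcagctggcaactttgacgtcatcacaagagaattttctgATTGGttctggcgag

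The pair was found in 2 of the 4 genes, H2-Eb1 (27 bases between the boxes, Y box ending 54 bases before the start) and H2-DMb1 (28 bases between them and 56 to the start). It was also found in 3 of 4 windows of other class II genes, with 27 bases between the boxes in H2-Eb2, 25 in H2-Ob and 28 in H2-Oa. Of all 32851 promoter windows, 37.4% held the Y box, 48.1% the X core and 1.17% the pair, each on either strand. The pairs of the class II genes named here ran in the direction of the gene. The window of H2-Aa held a Y box 43 bases before the start but not the letters AGNAAC, and neither H2-DMa window held the pair. A match is a description of letters and not of a bound site.

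Cells were put in classes by clustering without the 7 genes or any gene of the lists described below, and a class was named from markers that hold none of these genes. Class names are short for "dendritic-cell-like", "enterocyte-like" and so on. The dendritic cell cluster carried 15 of 19 dendritic cell markers, the macrophage cluster 13 of 14, and the B cell clusters up to 14 of 14. The monocyte cluster carried 14 of 15 monocyte markers but also 11 of 14 macrophage and 7 of 19 dendritic cell markers. The borders between these classes are therefore not sharp. Crypt cells carried 13 of 14 stem and 12 of 14 transit-amplifying markers. There were 10 classes of 20 or more cells per mouse: 3052 and 5238 T cells, 1981 and 598 plasma cells, 828 and 200 enterocytes, 429 and 97 B cells, 391 and 190 macrophages, 232 and 269 monocytes, 156 and 62 dendritic cells, 62 and 97 plasmacytoid dendritic cells, 89 and 53 innate lymphoid cells, and 117 and 29 crypt cells in mice 1 and 2. Levels are given as CPM, the UMIs of a gene per 1000000 UMIs in the summed cells of a class in 1 mouse, and the tests compared these sums, with the mouse as the replicate (n = 2).

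The 4 professional antigen-presenting classes held the genes at levels far over those of T cells, and all 7 genes passed the test in each of them. The 7 genes together made up 33627 and 30518 CPM of dendritic cells, 34169.8 and 24249.5 CPM of macrophages, 25016 and 15373 CPM of monocytes, and 15922 and 16932 CPM of B cells in mice 1 and 2. The same sum was 257 and 116 CPM in T cells. Across the 7 T-cell clusters it ran from 141 to 359 CPM in mouse 1 and from 67.7 to 168 CPM in mouse 2, so no T-cell cluster came near an antigen-presenting class. Dendritic cells were 1.96% and 0.891% of the kept cells and held 23.9% and 24.6% of all UMIs of these genes, whereas T cells were 38.4% and 75.3% of the cells and held 0.748% and 1.52%.

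**Figure D1:**
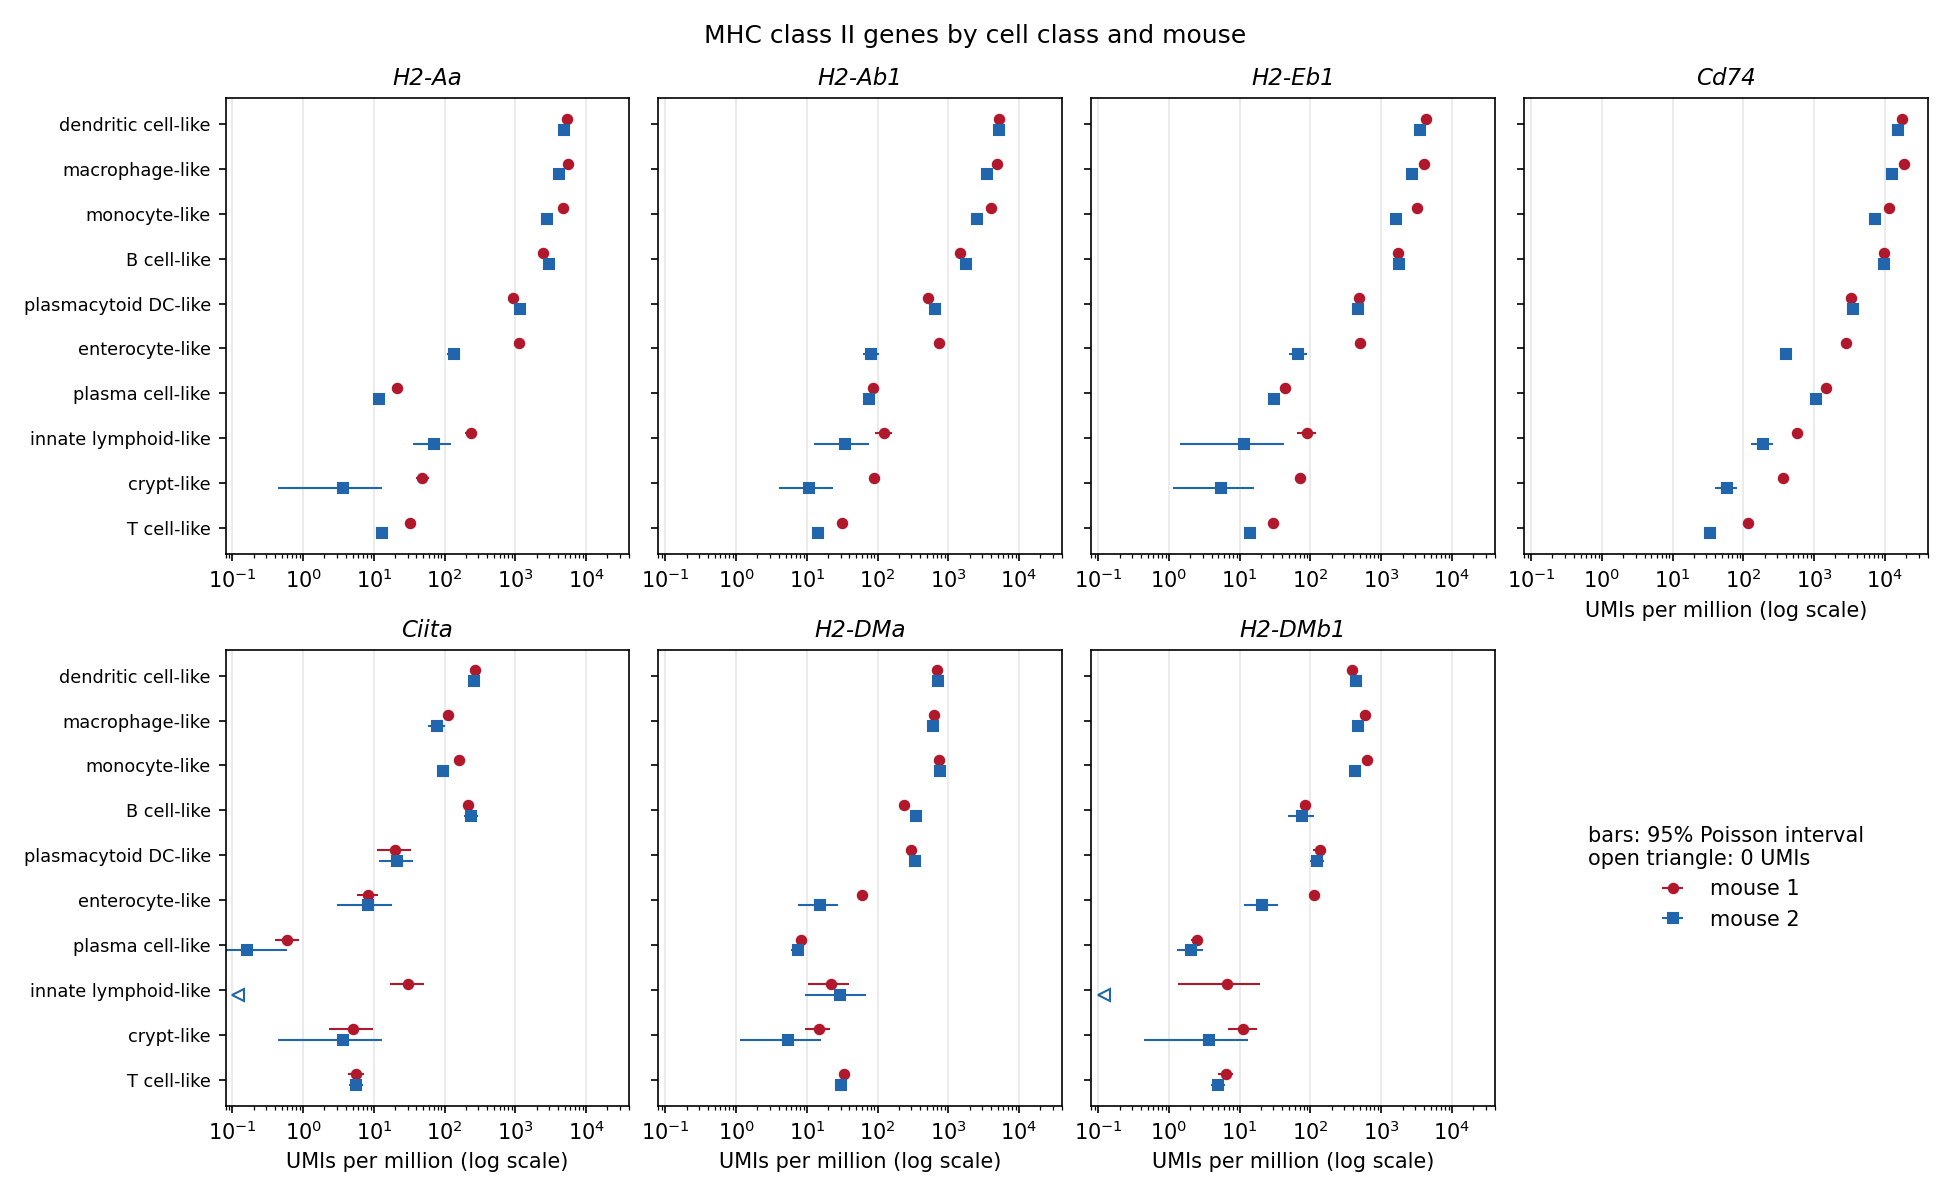
Level of each of the 7 genes (x axis, CPM on a log scale) in 10 cell classes (rows), with a circle for mouse 1 and a square for mouse 2. Bars are 95% Poisson intervals and cover counting error only. The enterocyte and crypt classes stand out by the distance between the mice. Cd74 was at 2774 and 399 in enterocytes and at 359 and 58.2 in crypt cells. The Ciita level of enterocytes was 8.27 and 8.34.

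The I-A and I-E chains had the same order of mean levels over the 4 antigen-presenting classes taken whole, dendritic cells before macrophages, monocytes and B cells. For H2-Aa and H2-Eb1 the last place of B cells rested on a deep B cell cluster, described below. H2-Aa was at 5314 and 4807 CPM in dendritic cells, 5516 and 4201 in macrophages, 4695 and 2837 in monocytes and 2493 and 2979 in B cells. In T cells it was at 32.6 and 12.97 CPM. By edgeR's quasi-likelihood test with Benjamini-Hochberg adjustment over 11910 genes, H2-Aa in dendritic cells was higher than in T cells by 8.02 ± 1.07 on the log2 scale (SE, adjusted p = 1.45e-05) and H2-Ab1 by 8.05 ± 1.04 (adjusted p = 1.02e-05). H2-Ab1 was at 5258 and 5264 CPM in dendritic cells, 4821 and 3572 in macrophages, 3992 and 2526 in monocytes and 1485 and 1805 in B cells. H2-Eb1 was at 4270 and 3563 CPM in dendritic cells, 4025 and 2710 in macrophages, 3191 and 1595 in monocytes and 1713 and 1793 in B cells. The 3 chains were thus at alike levels in both mice in dendritic and B cells and higher in mouse 1 in macrophages and monocytes, and none of them differed between dendritic cells, macrophages, monocytes and B cells past the threshold. In the edgeR fit with a replicate block, H2-Ab1 passed between dendritic cells and B cells (1.48, adjusted p = 0.0314).

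Cd74, whose product is the invariant chain and which lies on chromosome 18, took the largest share of these UMIs in every class of both mice. It was at 17441 and 15474 CPM in dendritic cells and 18478 and 12614 in macrophages. It was at 11610 and 7134 CPM in monocytes and 9691 and 9695 in B cells, against 117 and 33.7 CPM in T cells. The difference from T cells was 7.99 ± 1.11 in dendritic cells and 7.45 in B cells (log2, edgeR adjusted p = 2.1e-05 in the former), and Cd74 did not pass the test between any of these 4 classes.

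Ciita passed the test between some of the antigen-presenting classes, where the chains did not. The SE of the chains was larger, with H2-Ab1 at 1.47 ± 0.78 (log2) between dendritic cells and B cells. Whether Ciita and the chains differ in this was not tested. Its level was 266 and 260 CPM in dendritic cells, 216 and 237 in B cells, 161 and 95.2 in monocytes, and 112 and 77.6 in macrophages. The T-cell level was 5.62 and 5.64 CPM. Dendritic cells held more Ciita than macrophages by 1.54 ± 0.39 (log2, edgeR adjusted p = 0.0141), and macrophages held less than B cells (log2 −1.55, adjusted p = 0.00696). Between dendritic cells and B cells the difference in Ciita was −0.01 ± 0.38 on the log2 scale. Ciita was the only 1 of the 7 to pass the test between dendritic cells and macrophages, a comparison in which 5.99% of all genes tested were higher and 7.48% lower in dendritic cells. None of the 7 passed it between dendritic cells and monocytes (6.15% higher, 7.04% lower) or between macrophages and monocytes (6.49% higher, 4.9% lower). With a replicate block, Ciita was higher in dendritic cells than in monocytes (0.97, edgeR adjusted p = 0.0043) and lower in monocytes than in B cells (−0.95, adjusted p = 0.00335).

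Of the genes of the peptide-loading molecule, H2-DMb1 was lower in B cells than in dendritic cells, macrophages and monocytes, and H2-DMa than in dendritic cells and monocytes. H2-DMa was at 688 and 707 CPM in dendritic cells, 636 and 599.8 in macrophages, 747 and 756 in monocytes, and 239 and 349 in B cells. H2-DMb1 was at 391 and 444 CPM in dendritic cells, 580.3 and 475 in macrophages, 621 and 429 in monocytes, and 84.3 and 74.7 in B cells. Among these antigen-presenting classes, both were lowest in B cells in each mouse. How many of all genes had this order was not counted. Against B cells, edgeR gave a log2 difference for H2-DMb1 of 2.11 ± 0.52 in dendritic cells (adjusted p = 0.00591), 2.37 in macrophages and 2.54 ± 0.53 in monocytes (adjusted p = 0.00139), and for H2-DMa of 1.06 ± 0.38 in dendritic cells (adjusted p = 0.0469) and 1.27 ± 0.38 in monocytes (adjusted p = 0.0185). In macrophages H2-DMa did not pass against B cells (0.80 ± 0.38, adjusted p = 0.133), but did with a replicate block (0.81, edgeR adjusted p = 0.0295). These were 2 of 7 genes higher in dendritic cells than in B cells (18% of all genes), 2 of 7 in monocytes (18.3%) and 1 of 7 in macrophages (18.2%), where 1 of 7, Ciita, was lower (12.3%). H2-DMb1 shares 151 of the 951 stretches of 90 bases at its 3′ ends (15.88%) with its neighbour H2-DMb2, so reads there could not be assigned to 1 gene, and the other 6 genes share none. H2-DMa overlaps CR974462.3 on the same strand and Brd2 on the other.

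Against T cells, the share of all tested genes that were higher was 22.9% in dendritic cells, 22.5% in macrophages, 23.3% in monocytes and 9.19% in B cells, and 22.7%, 20.5%, 24.8% and 11.1% were lower. The median difference of the 7 genes was 7.74, 7.44, 7.13 and 6.59 on the log2 scale in these classes, with medians over all genes tested of −0.12, −0.05, −0.12 and −0.15. Plasmacytoid dendritic cells, which make type I interferon and present antigen poorly when resting, came next. The 7 genes summed to 5740.0 and 6308 CPM there, all 7 were higher than in T cells (14.6% of all genes, with 15.3% lower), and the median was 4.81. With RLE in place of TMM scaling, 2143 genes of all were higher and 1448 lower, against 1734 and 1820, and all 7 were again higher. Ciita in them was at 19.97 and 21.5 CPM, 3.62 lower on the log2 scale than in dendritic cells, and 4 of the 7 genes were lower than in dendritic cells (11.6% of all genes, with 9.1% higher). With a replicate block H2-Aa, Cd74 and H2-DMa were lower too (−2.21, −2.19 and −1.11, edgeR adjusted p = 0.00297, 0.00286 and 0.00509).

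Within the dendritic cells, cells were set apart by markers of cDC1, which cross-present, of cDC2, and of migratory cells that have taken up antigen. There were 53 and 22 cDC1, 81 and 30 cDC2 and 13 and 6 migratory cells. Cd74 was at 16353 and 14312 CPM in cDC1, 18515 and 16744 in cDC2 and 14296 and 15418 in migratory cells. Ciita was at 256 and 234 CPM in cDC1, 265 and 282 in cDC2, and 411 and 379 in migratory cells, so it was highest in migratory cells in both mice, where it rests on 53 and 18 UMIs. H2-Ab1 was at 5711 and 5355 CPM in cDC1, 5209 and 5218 in cDC2 and 2996 and 4880 in migratory cells. These are levels of few cells in 2 animals, and no test was made.

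The B cells were not uniform either. A deep cluster of 41 and 4 cells held 5256 and 3575 CPM of the 7 genes and 3539 and 2447 CPM of Cd74. The main B cell cluster held 23219 and 21612 CPM and 13900 and 12235 CPM of Cd74. In it H2-Aa was at 3785 and 3863 CPM, H2-Eb1 at 2546 and 2307 and H2-Ab1 at 2177 and 2358. By mean level its H2-Aa and H2-Eb1 came above those of monocytes, and its H2-Ab1 stayed below. Its Ciita was at 330 and 307 CPM, above dendritic cells in both mice. These differences were not tested. Without the deep cluster, an alternative added after the data were seen, all 7 genes again passed the test.

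Plasma cells, the antibody-secreting descendants of B cells, kept Cd74 but little else of the set. Cd74 was at 1459 and 1050.4 CPM, and it made up 90.01% and 89.2% of the UMIs of the 7 genes, against 51.9% and 50.7% in dendritic cells. H2-Ab1 was at 85.5 and 75.04 CPM, H2-Eb1 at 43.8 and 30.2, and H2-Aa at 21.2 and 11.9. Ciita was at 0.60 and 0.16 CPM. Thus Ciita was below its T-cell level in both mice, while Cd74 was above its own.

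Of the 7 genes, 3 were higher in plasma cells than in T cells (20.8% of all genes) and Ciita was lower (24.9%). By edgeR, Cd74 was higher by 5.93 ± 1.01 (log2, adjusted p = 0.000134), H2-Ab1 by 3.67 ± 0.85 (adjusted p = 0.00202) and H2-Eb1 by 2.67 ± 0.85 (adjusted p = 0.0162), and Ciita was lower, at −1.63 ± 0.49 (adjusted p = 0.0116). H2-Aa (1.44, adjusted p = 0.165, or 1.49 with adjusted p = 0.0208 when the mouse was a replicate block), H2-DMa (−0.11, adjusted p = 0.85) and H2-DMb1 (0.59, adjusted p = 0.4) did not pass. Against B cells, 6 of the 7 were lower (10.3% of all genes) and Cd74 did not pass (−1.52, adjusted p = 0.215, or −1.57 with edgeR adjusted p = 0.0207 with a replicate block). The plasma cell transcripts Jchain, Igha and Igkc took 632115 and 664157 CPM of this class, and the scaling factors of its sums were 0.332 and 0.365, so its fitted folds exceed the ratios of the CPM: H2-Aa was below its T-cell CPM in both mice. With cells classed by their own marker counts in place of clusters, only Cd74 was called.

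**Figure D2:**
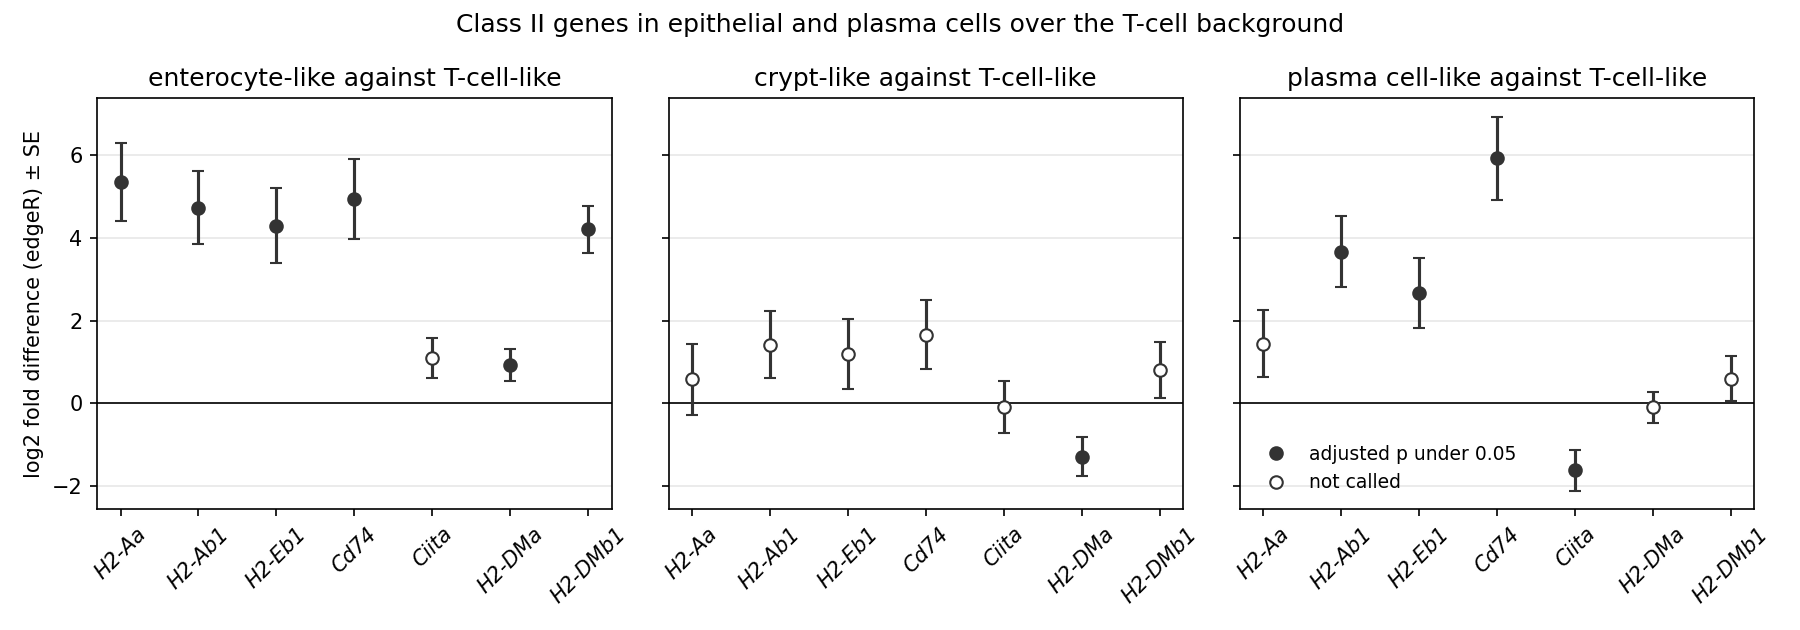
Difference of each gene from T cells (y axis, log2 fold, edgeR, ± SE) in enterocytes, crypt cells and plasma cells, over 2 mice. Filled points passed an adjusted p of 0.05 in the main fit and open points did not. There, 6 of 7 were higher in enterocytes, none was higher in crypt cells, and Cd74 led in plasma cells at 5.93. With a replicate block, which is not drawn, Cd74 and H2-Ab1 passed in crypt cells, Ciita in enterocytes and H2-Aa in plasma cells.

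In enterocytes, 6 of the 7 genes were higher than in T cells, where 31.8% of all genes tested were higher and 34.5% lower. Mouse 1 enterocytes held 5311 CPM of the 7 together, with a 95% Poisson interval from 5244 to 5379, and mouse 2 enterocytes 727 CPM, from 666 to 792. The T-cell sums of 257 CPM (247 to 267) and 116 CPM (110.4 to 121) lay well below. H2-Aa was at 1121 and 135 CPM, Cd74 at 2774 and 399, H2-Ab1 at 743 and 82.0, and H2-Eb1 at 494 and 66.7. Each of these 4 was above its T-cell level in both mice, and each was 6.95 to 9.07 times as high in mouse 1 as in mouse 2. H2-DMb1 was at 112 and 20.8 CPM, against 6.39 and 4.96 in T cells.

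The difference from T cells was 5.36 ± 0.95 for H2-Aa (log2, edgeR adjusted p = 0.000101), 4.74 ± 0.89 for H2-Ab1 (adjusted p = 0.000184), 4.29 ± 0.91 for H2-Eb1 (adjusted p = 0.000523) and 4.95 ± 0.96 for Cd74 (adjusted p = 0.000245). It was 4.21 ± 0.57 for H2-DMb1 (adjusted p = 5.47e-06). The median over the 7 was 4.29, against −0.13 over all genes. Without the enterocytes of mouse 1, H2-Aa was at 3.01, Cd74 at 2.84, H2-DMb1 at 2.34 and H2-Ab1 at 2.27. H2-Eb1 was then at 2.08.

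H2-DMa and Ciita did not share this pattern. H2-DMa was at 59.5 and 15.3 CPM in enterocytes and 33.7 and 29.96 in T cells, above in mouse 1 and at 0.51 of the T-cell level in mouse 2. It passed at 0.92 ± 0.39 (log2, edgeR adjusted p = 0.0473), but without the enterocytes of mouse 1 it was at −0.59 (adjusted p = 0.256). Ciita in enterocytes was at 8.27 and 8.34 CPM, from 37 and 6 UMIs, 1.47 and 1.48 times the T-cell level. Its difference of 1.10 ± 0.49 missed the threshold (edgeR adjusted p = 0.0562). In the fit that took the animal as a replicate block it passed, at 0.96 (adjusted p = 0.0257), as it did with DESeq2, at 1.32 (adjusted p = 0.00677). The Ciita CPM of enterocytes was alike in both mice (ratio 0.99), where the chains differed several-fold, but 6 UMIs leave the level in mouse 2 imprecise.

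Compared with other classes, enterocytes held less of all 7 genes than dendritic cells (29.8% of all genes were lower): Cd74 by −3.04 ± 0.88, H2-Aa by −2.66 ± 0.84 and Ciita by −4.69 ± 0.48 (log2, edgeR adjusted p = 0.00728, 0.0121 and 5.5e-07). Against plasmacytoid dendritic cells, only H2-DMa passed, lower at −2.66 ± 0.41 (26.6% of all genes were lower), and the interval of the other 6 is wide, with a difference in H2-Aa of −0.42 ± 0.79. In the fit with a replicate block, Cd74 (−1.28, edgeR adjusted p = 0.0369) and Ciita (−1.18, adjusted p = 0.0345) were lower as well. Against plasma cells, H2-Aa was higher by 3.92 ± 0.89 (adjusted p = 0.00106), H2-DMb1 by 3.62 ± 0.56 and Ciita by 2.73 ± 0.55, H2-DMa by 1.03 ± 0.40, and Cd74 did not pass (−0.98, adjusted p = 0.315), which makes 4 of 7 higher (30% of all genes). With a replicate block, H2-Eb1 was also higher (1.37, edgeR adjusted p = 0.0153) and Cd74 lower (−1.35, adjusted p = 0.0235).

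Whether crypt cells held these genes over the T-cell background depended on the fit. None passed in the main fit, and Cd74 and H2-Ab1 passed with the mouse as a replicate block, as given below. Cd74 was at 359 and 58.2 CPM, H2-Ab1 at 89.7 and 10.9, H2-Eb1 at 71.7 and 5.46, and H2-Aa at 48.5 and 3.64. In mouse 1 all 4 were above the T-cell level, and in mouse 2 only Cd74 was. Crypt cells of mouse 1 held 599.9 CPM in sum (564 to 637 by the Poisson interval) and those of mouse 2 held 91.0 (67.5 to 119.9), which lay below the 116 CPM of T cells and rested on 50 UMIs in 29 cells.

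In the main fit, none of the 7 genes was higher in crypt cells than in T cells, where 28.6% of all genes were. H2-DMa was lower at −1.30 ± 0.47 (log2, edgeR adjusted p = 0.0239, with 33.9% of all genes lower). Cd74 was at 1.66 ± 0.84 (adjusted p = 0.0986), H2-Ab1 at 1.41 ± 0.82 (adjusted p = 0.144), H2-Eb1 at 1.18 ± 0.85 (adjusted p = 0.241) and H2-Aa at 0.57 ± 0.86 (adjusted p = 0.589). With the mouse as a replicate block, Cd74 (1.60, edgeR adjusted p = 0.0102) and H2-Ab1 (1.38, adjusted p = 0.0469) passed. Without the crypt cells of mouse 2, Cd74 (2.49, adjusted p = 0.0223) and H2-Ab1 (2.20, adjusted p = 0.0338) passed, and without those of mouse 1 Cd74 was at −0.31 and H2-Aa at −2.56. These fits kept the T cells of both mice, so their values are not differences within a mouse. Against the T-cell CPM of the same mouse, H2-Aa, H2-Ab1 and H2-Eb1 were above in mouse 1 and below in mouse 2. The direction for the chains therefore depended on the mouse. Crypt Cd74 was above in both, at 3.055 and 1.73 times the T-cell CPM.

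The difference between the epithelial classes was itself tested. Of the 7 genes, 6 were higher in enterocytes than in crypt cells, as were 23.5% of all genes (15.4% were lower). H2-Aa differed by 4.79 ± 0.96 (log2, edgeR adjusted p = 0.000789), H2-DMb1 by 3.41 ± 0.64 (adjusted p = 0.000487), H2-Ab1 by 3.32 ± 0.86 (adjusted p = 0.00531) and Cd74 by 3.29 ± 0.89 (adjusted p = 0.00757). H2-Eb1 differed by 3.11 ± 0.89 (adjusted p = 0.0103) and H2-DMa by 2.22 ± 0.48 (adjusted p = 0.00146), and Ciita did not pass (1.202 ± 0.66, adjusted p = 0.169).

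Within the enterocytes, the level was highest in the sub-cluster led by Apoa1 and Apoa4, genes of lipid export in mature villus cells. This sub-cluster, E1, held 60.7% and 56.4% of the enterocyte UMIs of the 7 genes, beside 40.5% and 23.8% of their UMIs of all genes. It was 28.99% and 14% of the enterocytes, and its cells were deep, with a median of 6097 and 4678 UMIs against 792 and 845 in E0. Its sum was 7962 and 1721 CPM, with H2-Aa at 1717 and 373, H2-Ab1 at 1210 and 222 and Cd74 at 4039 and 887. Sub-clusters E2, E5, E0 and E4 held 3843 and 477, 3797 and 419, 2076 and 419, and 1560 and 225 CPM. Each of the 5 lay above the T-cell level of its own mouse, and E1 was highest in both mice. The ratio of mouse 1 to mouse 2 was 4.63 in E1, 4.95 in E0, 6.92 in E4, 8.05 in E2 and 9.06 in E5, so the distance between the mice was found within every sub-cluster. Sub-clusters came from these same cells, and no test was made between them.

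**Figure D3:**
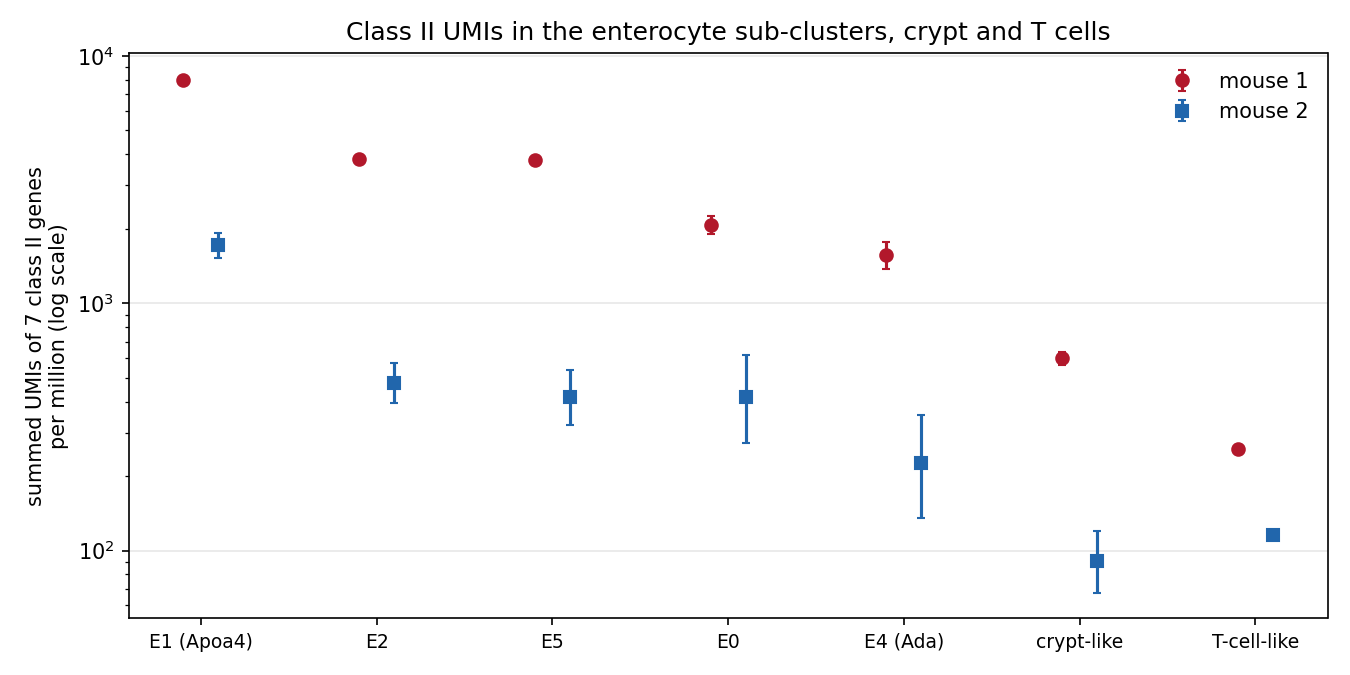
Summed level of the 7 genes (y axis, CPM on a log scale) in the 5 enterocyte sub-clusters, crypt cells and T cells (x axis), with a circle for mouse 1, a square for mouse 2 and 95% Poisson intervals. Every enterocyte sub-cluster lies above the T cells of its mouse, E1 leads with 7962 and 1721, and the crypt level of mouse 2, 91.0, lies below its T cells.

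The distance between the mice was not alike in all classes. The ratio of the summed CPM of mouse 1 to that of mouse 2 was 7.31 in enterocytes and 6.59 in crypt cells. It was 3.25 in innate lymphoid cells and 2.22 in T cells, and 1.63 in monocytes, 1.41 in macrophages, 1.38 in plasma cells, 1.10 in dendritic cells, 0.94 in B cells and 0.91 in plasmacytoid dendritic cells. Both mice belong to 1 group, so no cause is given by the labels, and none was tested. In T cells, the ratio was 3.49 for Cd74 and 2.52 for H2-Aa but 1.13 for H2-DMa and 1.00 for Ciita.

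RNA of other cells was measured beside these results. A list of 14 B-cell and myeloid genes outside the set was at 105 and 52.6 CPM in T cells, 98.6 and 117 in enterocytes and 71.1 and 1.82 in crypt cells, and Jchain, Igha and Igkc together at 25319 and 4441 CPM in T cells, 19274 and 3280 in enterocytes and 18189 and 986 in crypt cells. This plasma-cell RNA was thus higher in mouse 1 in all 3 classes, as the class II sum was. Per UMI of the 14 genes there were 2.43 and 2.20 UMIs of the 7 genes in T cells, 53.9 and 6.23 in enterocytes, and 8.44 in the crypt cells of mouse 1. The crypt cells of mouse 2 held 1 UMI of the 14 genes. The same number was 30.01 and 48.7 in dendritic cells, 4.62 and 4.24 in B cells, 2.05 and 1.63 in macrophages, 2.33 and 1.56 in monocytes and 2.05 and 1.79 in plasma cells. The part that RNA of other cells has in the enterocyte and crypt levels, and in their distance between the mice, was not tested.

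Epithelial cells were also divided by whether they held any UMI of 14 leukocyte genes. Enterocytes without such UMIs (517 and 169 cells) held 5453 and 756 CPM of the 7 genes, and those with them (311 and 31) held 5162 and 576. Crypt cells without them (50 and 17) held 249 and 55.2 CPM, and those with them (67 and 12) held 768 and 143. So leaving out these cells did not lower the enterocyte level, whereas it lowered the crypt level, to 249 CPM beside 257 in the T cells of mouse 1 and to 55.2 beside 116 in mouse 2. The cells without such UMIs had a median of 2579 and 1861 UMIs in enterocytes and 10332 and 18391 in crypt cells. A shallow cell can lack such a UMI by its depth, so the split is not a test of RNA from other cells. In the fit without epithelial cells holding leukocyte UMIs, enterocyte Cd74 was at 4.82 and crypt Cd74 at 0.71 (log2 against T cells). Of the 7 genes, 5 and 0 were called higher, beside 3315 and 3050 of all 11284 genes tested.

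The make-up of the transcripts differed between classes as well. Cd74 made up 52.2% and 54.9% of the UMIs of the 7 genes in enterocytes, 45.8% and 29.1% in T cells, and 59.8% and 64.0% in crypt cells. H2-Aa made up 21.1% and 18.6% in enterocytes, 15.8% and 15.8% in dendritic cells and 1.31% and 1.01% in plasma cells. H2-DMa made up 13.1% and 25.9% in T cells but 1.12% and 2.10% in enterocytes. Ciita made up 0.16% and 1.15% in enterocytes, 0.79% and 0.85% in dendritic cells, 1.36% and 1.40% in B cells and 0.04% and 0.01% in plasma cells. The T-cell make-up, with its large part of H2-DMa, was not that of any antigen-presenting class.

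**Figure D4:**
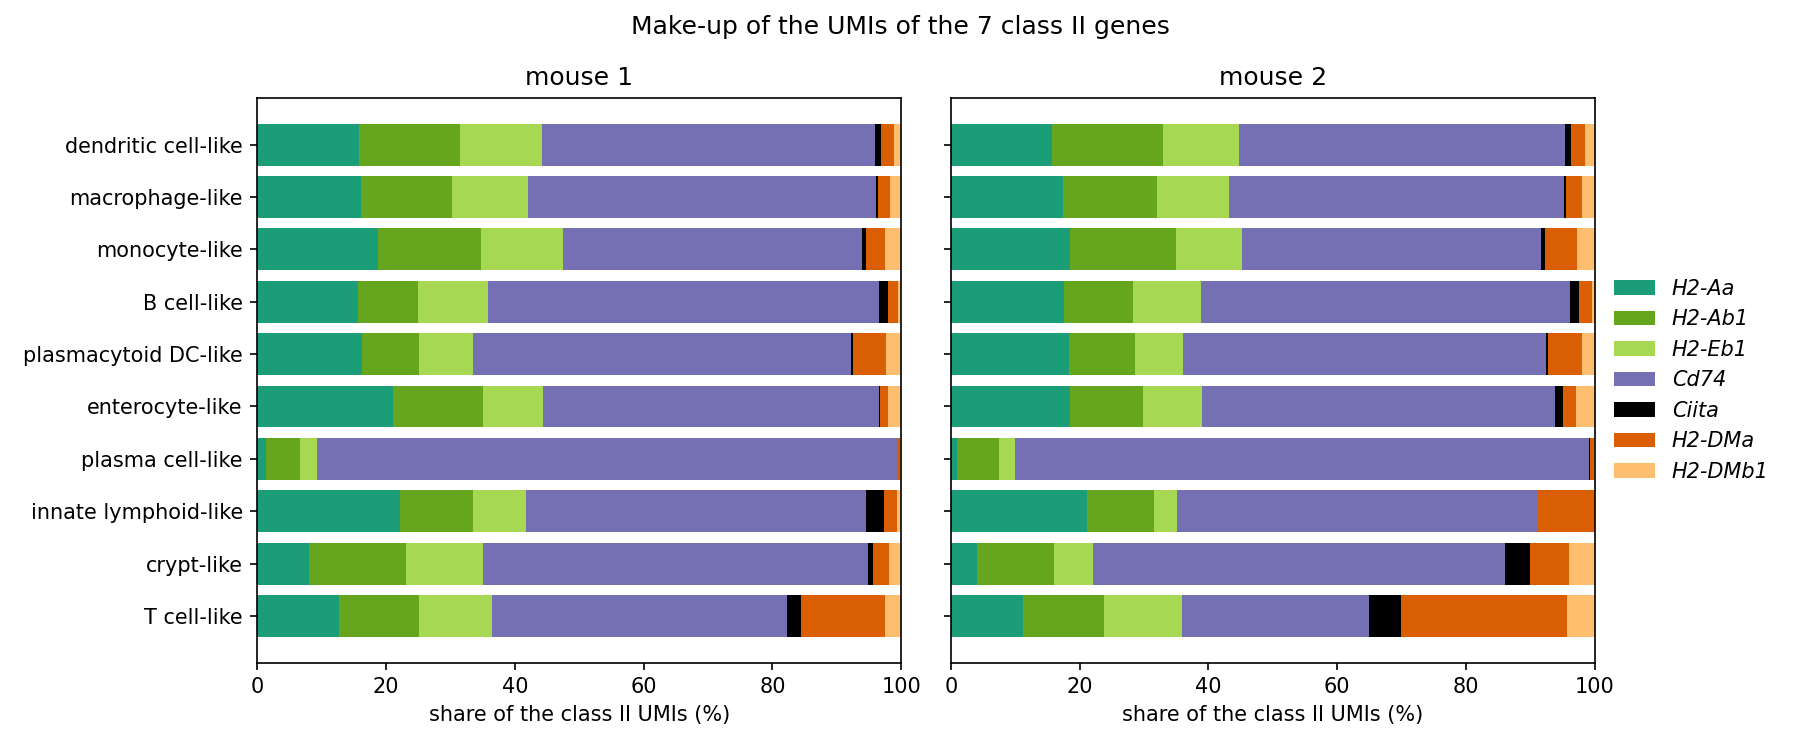
Share of each gene in the summed UMIs of the 7 genes (x axis, %) for 10 cell classes (rows) in mouse 1 (left) and mouse 2 (right). Cd74 fills 90.01% and 89.2% of the plasma cell bar, and H2-DMa 13.1% and 25.9% of the T-cell bar.

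Counted by cell, enterocytes were again above T cells in each mouse. With each cell thinned to 1000 UMIs, at least 1 UMI of any of the 7 genes was found in 87.0% of mouse 1 enterocytes (84.1 to 89.5%, exact binomial 95% interval) and in 24.0% of mouse 2 enterocytes (17.3 to 31.7%), against 21.0% (19.5 to 22.5%) and 9.02% (8.25 to 9.83%) of T cells. Crypt cells gave 26.5% (18.8 to 35.5%) and 3.45% (0.0873 to 17.8%), which was not distinguishable from T cells at this depth. Unthinned, the shares were 88.4% and 42.5% in enterocytes, 49.0% and 22.5% in T cells, and 80.3% and 37.9% in crypt cells, whose median depth of 11887 and 18151 UMIs was well over the 3188 and 2556 of T cells. Thinning left out 183 and 54 enterocytes, 92 and 81 T cells and no crypt cells. At least 5 UMIs per 1000 were found in 43.6% of enterocytes of mouse 1 (281 of 645 cells) and 1.37% of those of mouse 2 (2 of 146), against 0.169% and 0.0388% of T cells. In mouse 2 all dendritic cells and B cells held at least 1 UMI, and in mouse 1 99.4% and 99.8% did. At least 5 UMIs were found in 95.1% and 96.9% of B cells and 93.6% and 93.4% of dendritic cells. For macrophages this was 94.5% and 90.3%, and for monocytes 76.8% and 57.8%. By this count B cells came before monocytes, unlike in the mean CPM of the I-A and I-E chains. Monocytes were uneven, with a median of 24 and 6 UMIs per cell and a lower quartile of 5 and 1. The median in dendritic cells was 32 and 27.

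Innate lymphoid cells, of which one type is known to present antigen through class II, were few. Cd74 was at 567 and 186 CPM in them, H2-Aa at 238 and 69.8, H2-Ab1 at 122 and 34.9 and H2-Eb1 at 89.5 and 11.6. Ciita was at 30.6 CPM in mouse 1 and 0 of 171959 UMIs in mouse 2, where 3 UMIs would be 17.4 CPM. None of the 7 passed the test against T cells (7.22% of all genes were higher and 7.62% lower), with H2-Aa at 2.57 (log2, edgeR adjusted p = 0.0608). H2-Aa (2.56, adjusted p = 0.00466) and Cd74 (2.12, adjusted p = 0.00847) passed in the edgeR fit with a replicate block. With RLE in place of TMM scaling, 1099 genes of all were higher and 619 lower in innate lymphoid cells, against 860 and 907.

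With the 10 classes placed in order of the mean CPM of a gene, 9 steps between neighbours could be tested for each gene, and few passed. None passed for H2-Ab1, and for H2-Aa only the step from enterocytes down to innate lymphoid cells did (2.79 ± 0.88, edgeR adjusted p = 0.014). H2-Eb1 passed at that same step and from plasma cells to T cells, Cd74 from plasma cells to innate lymphoid cells, and Ciita from macrophages to plasmacytoid dendritic cells (2.08 ± 0.48, adjusted p = 0.00453). H2-DMb1 passed from dendritic to plasmacytoid dendritic cells and from enterocytes to crypt cells. H2-DMa passed at 3 steps, from B cells to enterocytes, from enterocytes to T cells and, against the order of the CPM, between crypt and plasma cells. All other neighbours did not differ beyond their spread by this test, which with 2 mice does not show that they were alike. With a replicate block 26 of the 63 steps passed, against 10 without it, among them the step down to plasmacytoid dendritic cells from B cells for H2-Aa, H2-Ab1 and H2-Eb1 (edgeR adjusted p = 0.0371, 0.0321 and 0.00378).

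Other genes of the pathway moved in fewer numbers. Of 16 further pathway genes tested against T cells, 8 were higher and 3 lower in dendritic cells (22.9% and 22.7% of all genes), 6 and 2 in macrophages (22.5% and 20.5%), 8 and 2 in monocytes (23.3% and 24.8%) and 8 and 1 in B cells (9.19% and 11.1%). March1, whose product takes class II off the cell surface, and the invariant-chain protease gene Ctss were higher in all 4 classes. H2-Oa and H2-Ob, which encode the inhibitor of H2-DM, were higher in dendritic cells, monocytes and B cells and did not pass in macrophages (1.44 and 0.73 on the log2 scale, edgeR adjusted p = 0.109 and 0.596). In enterocytes 4 were higher, Lgmn (4.95), March8 (2.32), Ctsl (2.23) and Ctss (1.75 on the log2 scale), of which Lgmn, Ctsl and Ctss encode endosomal proteases, and Creb1 was lower, against 31.8% and 34.5% of all genes. H2-Oa, H2-Ob, H2-DMb2 and H2-Eb2 were each at 1.12 CPM or less in enterocytes of mouse 1 and without a UMI in mouse 2. In crypt cells 2 were higher, Lgmn and Rfxap, and 3 lower, against 28.6% and 33.9% of all genes. In both epithelial classes the share of the 16 that was higher lay below that of all genes, so these counts are no result about the list. Ctss and Lgmn in enterocytes were at 183 and 47.3 and at 117 and 25.02 CPM, and thus differed between the mice by 3.87 and 4.68 times.

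Of 6 co-stimulatory genes, 5 were higher in dendritic cells than in T cells (22.9% of all genes), among them Cd40 and Cd86. In enterocytes and in crypt cells none was higher and 5 of 6 were lower than in T cells (34.5% and 33.9% of all genes). Cd80 was at 0.22 CPM in the enterocytes of mouse 1 and had no UMI in those of mouse 2.

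The 10 genes whose log2 CPM over the 20 class and mouse sums followed the mean of the 7 most closely, among 10734 genes, were BC028528 (Pearson r 0.938), Plbd1 (0.930), March1 (0.924), Kynu (0.924), Fgd2 (0.921), Ctsz (0.920), Gm6377 (0.914), Pira2 (0.909), Rogdi (0.909) and Erp29 (0.904). The 20 sums share 2 libraries and 10 classes, and the values describe likeness only. Among the 7 themselves, r ran from 0.775 for Cd74 with Ciita to 0.992 for H2-Ab1 with H2-Eb1.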

How the data were processed

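Droplet 3′ libraries (10x 3′ v3) of viable cells sorted on DAPI were sequenced from 2 mice. The deposited values are raw UMI counts per gene and barcode, made by the authors with Cell Ranger 6.1.2 on mm10 (submitters' processing notes); the annotation release is not given in the sources used here. Library totals were 85670711 UMIs over 9645 barcodes (mouse 1) and 38716743 over 8800 (mouse 2), and 24 barcodes occurred in both. Barcodes with over 100 genes, over 400 UMIs, under 5% mitochondrial and under 10% haemoglobin UMIs were kept, and genes in at least 3 cells.

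Libraries were integrated in Seurat 5.3.0 (R 4.3.3; RPCA, 2000 variable features without the 7 genes and their lists, 30 dimensions, resolution 0.8), and epithelial clusters were divided again. Markers were scored as present in a cluster at detection in 10% of cells and a log2 fold of 1 or more, and 3 such markers were needed for a name. Of 29 clusters and sub-clusters, 5 stayed unnamed (399 and 115 cells). The authors' cell labels were not used, so class names may differ from theirs. Doublets were kept: Scrublet (scanpy 1.11.5) called 1 and 0 cells and so did not work.

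Counts were summed per class and mouse. The 10 classes of 20 or more cells per mouse were fitted together in edgeR 4.0.16 (TMM, filterByExpr, glmQLFit, glmQLFTest, two-sided, Benjamini-Hochberg over 11910 genes, threshold 0.05). Sums of 1 number come from 1 animal, so they are paired: the correlation of their deviations ran from 0.12 to 0.64 over 10 classes (median 0.21). The fit without the block was the main one. On data simulated from the real sums, 90.5% of genes changed by 2 on the log2 scale were called in enterocytes against T cells. In crypt cells 82.9% were called. For a change of 1, the rates were 22.3% in enterocytes and 15.2% in crypt cells. These rates are over all genes tested and were not worked out for the class II genes. Against T cells, the SE of H2-Aa, H2-Ab1, H2-Eb1 and Cd74 was 0.82 to 0.86 in crypt cells and 0.89 to 0.96 in enterocytes. The rates therefore do not show that a missed call of these genes means no change. Intervals are exact (Poisson for CPM, binomial for shares, both 95%) and cover counting error only. For a count of 0 in the text the level of 3 counts is given, and not the exact upper end.

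All 7 genes were named, with the called genes of 4 lists (class II pathway, co-stimulation, MHC class I, interferon-γ response; up to 4 per list and comparison, further list members, named for their role, were chosen after their values were seen), and the 10 genes most like the 7 by Pearson r of log2(CPM + 1). The genes and lists were chosen with earlier results of these data known, so counts over lists are descriptions. Alternatives were DESeq2 1.42.0, other scaling, no filter on low counts, the block, other clusterings and depths, and leaving out mice. Those leaving out cells with a Ptprc UMI, a cluster or the sum of 1 class and mouse were chosen after seeing the data.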

Additional observations from a re-analysis of the deposited data

Results flagged for a closer look

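Cells outside the 10 classes also held UMIs of the 7 genes, over the T-cell level of their library (257 and 116 CPM) except in sub-cluster E7 of mouse 2 and in acinar cells. The barcodes removed by the filters, 1704 and 1843, held 2391 CPM in mouse 1 and 1427 CPM in mouse 2. Among the clusters left unnamed, the sum was 1473 and 479 CPM in cluster 12, 2736 and 1176 in cluster 18, 7344 and 161 in sub-cluster E6, 389.8 and 73.4 in E7, and 2838 and 836 in E8. Acinar cells, found in mouse 1, held 255 CPM, which is not above the T cells of that mouse, and neutrophils held 500.2 and 186 CPM in 18 and 9 cells. E6, like the enterocytes, was far higher in mouse 1. What these values come from was not tested.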

How the results depend on the processing

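In dendritic cells, macrophages, monocytes and B cells all 7 genes were called higher than in T cells under every alternative run. The count of genes called higher was 4 to 7 in enterocytes, 6 to 7 in plasmacytoid dendritic cells and 1 to 4 in plasma cells (1 with cells classed by their own marker counts). In crypt cells 0 to 4 were called higher: 2 with the replicate block, 1 without immunoglobulin genes, 4 without the filter on low counts, and 0 to 2 when mice or single sums were left out. In innate lymphoid cells 0 to 5 were called higher: 2 with the replicate block, 5 without the filter, 1 with DESeq2, with RLE factors, with only the compared classes, without immunoglobulin genes or without T cells holding B-cell or myeloid UMIs, and 0 to 1 when mice or single sums were left out. In the main fit the share of all genes higher than in T cells was 31.8% in enterocytes, 14.6% in plasmacytoid dendritic cells and 20.8% in plasma cells. It was 28.6% in crypt cells and 7.22% in innate lymphoid cells. In these last 2 classes 3623 and 986 of 11910 genes were higher with the replicate block, and 3760 and 976 of 20349 without the filter. Beside the calls given with the results, the replicate block changed no call of the 7 genes against T cells. Over all 315 comparisons of a gene between a pair of classes, added after the data were seen, it raised the calls from 212 to 249, lost none and reversed none. RLE scaling moved the median of all genes from −0.31 to −0.03 in crypt cells, from −0.13 to 0.06 in enterocytes, and upward in the other classes. Leaving out a whole mouse leaves 1 sum per class and gives values with no test. Single values turned in direction 36 times among 1239, all in plasma, crypt, enterocyte and innate lymphoid cells. Of the values, 1139 kept their direction and their side of the threshold. Where a whole mouse was left out, a move of under 1 SE was counted in place of the side of the threshold. The cause was not tested. Without epithelial cells holding leukocyte UMIs, crypt H2-Aa was at −1.63, H2-Eb1 at −0.96 and H2-DMb1 at −1.15 on the log2 scale against T cells, and Cd74 made up 68.5% of the class II UMIs of crypt cells of mouse 1. With cells classed by their own marker counts, crypt H2-Aa was at −1.96, H2-Ab1 at −1.18, H2-Eb1 at −1.35 and Cd74 at −0.63, and innate lymphoid H2-Aa at −0.82, H2-Ab1 at −1.16, H2-Eb1 at −3.01 and Cd74 at −1.05. Crypt Ciita was at 0.0102 at resolution 1.2, 0.23 without immunoglobulin genes, 0.0131 without T cells holding B-cell or myeloid UMIs, 0.157 with RLE factors and 0.154 with DESeq2, and plasma cell H2-DMa at 0.0012 without immunoglobulin genes and 0.0201 with only the compared classes. With mice or single sums left out, the log2 difference ran in crypt cells from −2.56 to 1.496 for H2-Aa, −1.01 to 2.20 for H2-Ab1, −1.89 to 1.99 for H2-Eb1, −0.31 to 2.94 for Cd74, −0.55 to 0.12 for Ciita and −0.54 to 1.26 for H2-DMb1. It ran from −0.29 to 0.0184 for H2-DMa in plasma cells, −0.59 to 1.59 for H2-DMa in enterocytes, and in innate lymphoid cells from −1.13 to 1.60 for H2-Eb1 and −7.05 to 2.15 for Ciita. Thinned to 500 and 2000 UMIs, the share of cells with a UMI was 72.5% and 95.2% in enterocytes of mouse 1, 17% and 36.1% in those of mouse 2, 15.4% and 44.2% in crypt cells of mouse 1, and 12.1% and 34.5% and then 5.21% and 17.6% in T cells of mice 1 and 2. The 29 crypt cells of mouse 2 and their 50 UMIs limit every statement on crypt cells, and 2 animals limit all.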

Other observations

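Genes of MHC class I presentation, which serve every nucleated cell, were compared with T cells, which express class I themselves. Of 10 such genes, 6 were lower in enterocytes (34.5% of all genes tested) and 1, the immunoproteasome subunit gene Psmb10, was higher (1.33 ± 0.25 on the log2 scale, edgeR adjusted p = 0.000162; 31.8% of all genes), while 9 were lower in crypt cells (33.9%). The class I heavy chain genes H2-K1 and H2-D1 were at 556 and 174 and at 453 and 133 CPM in the enterocytes of mice 1 and 2, so they too were higher in mouse 1, by 3.20 and 3.39 times. B2m, the light chain gene, was at 2103 and 1441 CPM, 1.46 times as high. In crypt cells H2-K1 was at 109 and 60.03 CPM, H2-D1 at 112 and 43.7 and B2m at 326 and 175, each below the enterocytes of the same mouse, a difference that was not tested. Nlrc5, the class I counterpart of Ciita, was at 1.79 and 1.39 CPM in enterocytes and 61.8 and 86.6 in T cells. Dendritic cells had 2 of the 10 higher and 2 lower than T cells, macrophages 0 and 2, monocytes 1 and 2, B cells 0 and 2 and plasma cells 2 and 1. The shares of all genes higher and lower than in T cells were 22.9% and 22.7% in dendritic cells, 22.5% and 20.5% in macrophages, 23.3% and 24.8% in monocytes, 9.19% and 11.1% in B cells and 20.8% and 24.9% in plasma cells, and these hold for the next list too.

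Of 18 genes of the interferon-γ response, 12 were lower in enterocytes and 13 in crypt cells than in T cells (34.5% and 33.9% of all genes), and Ifngr2, a receptor chain gene, was higher in both (6.26 ± 0.55 and 4.07 ± 0.53 on the log2 scale, edgeR adjusted p = 4.85e-08 and 5.29e-06; 31.8% and 28.6% of all genes). Irf1, a transcription factor gene of this response, was at 46.5 and 50.03 CPM in enterocytes. Others differed more between the mice, in both directions. Igtp was at 23.0 and 6.95 CPM and Cxcl10 at 4.47 and 1.39. Gbp2 was at 0.447 and 5.56 CPM, Cxcl9 at 1.12 and 4.17 and Jak2 at 46.7 and 89.0. In mouse 2 enterocytes 3 UMIs are 4.17 CPM, so the low levels there are imprecise. Ifng itself was at 8.72 and 4.55 CPM in T cells. Macrophages had 7 of the 18 higher and 5 lower, with Cxcl9 leading, dendritic cells 4 and 6, monocytes 5 and 5, B cells 1 and 7 and plasma cells 2 and 11.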
